A study of Mus musculus with 30 samples.

Results

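The cadherins and protocadherins are surface proteins that hold neighbouring cells together through calcium-dependent contacts. They were followed here in mouse neurospheres, floating clusters of dividing neural precursors, on a pair of Affymetrix arrays named MOE430A and MOE430B. A member was any probe set (the group of short probes that measures 1 transcript) with exactly 1 gene symbol in the platform tables, where that symbol began with Cdh and a digit or with Pcdh. By this rule 56 of the 18193 genes measured were members, through 101 of the 45265 probe sets, 59 on MOE430A and 42 on MOE430B. Several probe sets measured 27 of the genes. Another 6 probe sets that match several alpha protocadherins at once were not members. The members comprised 9 probe sets for 5 type I classical cadherins, 21 for 11 type II cadherins, 9 for 5 atypical cadherins, 9 for 4 delta-1 protocadherins, 16 for 5 delta-2 protocadherins, 29 for 23 clustered protocadherins and 8 for 3 other protocadherins.

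All neurospheres came from embryonic day 14 basal ganglia and grew for 7 days in DMEM:F12 medium supplemented with N2 and with B27 at 2%. The 6 EGF samples were started from the medial and lateral ganglionic eminences, and their titles, descriptions and purification name EGF, while their growth protocol names PDGF-AA. The 3 samples with PDGF-AA and NT-3 were started from the anterior entopeduncular area, and their labels give both factors as 100 ng/ul, the unit as written there. The 6 PDGF samples came from the same area and were grown with PDGF-AA at 100 ng/ml. EGF and PDGF neurospheres thus differed in brain region as well as in growth factor, and these cannot be told apart. Purity was labelled unknown for the samples with NT-3. Their labels give RNA at 192, 287 and 171 ng/ul, against 100 ng/ul for every EGF and PDGF sample. NT-3 and this difference in RNA cannot be told apart. The labels used here name no strain, sex or number of embryos, nor whether replicates were separate cultures. The p-values therefore cover only the variation among RNA samples, which may be technical.

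Classical cadherins bind the same cadherin on the next cell and are tied to the actin cytoskeleton through beta-catenin and alpha-catenin. Type I cadherins include N-cadherin (Cdh2), which holds neuroepithelial and radial glial cells together at the ventricular surface, and type II cadherins are expressed in overlapping patches that mark brain divisions and neuron groups. Delta protocadherins lack catenin binding sites, adhere weakly, and signal through cytoplasmic partners such as the WAVE actin regulator complex. Clustered protocadherins are made from a tandem gene array in which each neuron uses a few members chosen by promoter, a choice that involves the factor Ctcf and cohesin.

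The promoters of 4 delta protocadherins with calls against PDGF are shown so that the starts of these related genes can be compared. Pcdh8, Pcdh17 and Pcdh9 were lower in EGF than in PDGF neurospheres, and Pcdh10 was higher in neurospheres with NT-3. Each line gives 300 bases from 250 before to 50 after the annotated start, 5′ to 3′ on the strand of the gene, from RefSeq on build GRCm38.p6. The windows are Pcdh17 at chr14:84443313-84443612, plus strand; Pcdh8 at chr14:79771263-79771562, minus strand; Pcdh9 at chr14:93890630-93890929, minus strand; and Pcdh10 at chr3:45378148-45378447, plus strand. Capitals mark matches, on either strand, to 4 motifs. They are CCAAT, the core of the box named for it, and TATAAA, the core of the TATA box. The others are ACAAAG, a core that Sox and Tcf factors can bind, and CAGGTG, an E-box that Snail and Zeb repressors can bind.
Pcdh17: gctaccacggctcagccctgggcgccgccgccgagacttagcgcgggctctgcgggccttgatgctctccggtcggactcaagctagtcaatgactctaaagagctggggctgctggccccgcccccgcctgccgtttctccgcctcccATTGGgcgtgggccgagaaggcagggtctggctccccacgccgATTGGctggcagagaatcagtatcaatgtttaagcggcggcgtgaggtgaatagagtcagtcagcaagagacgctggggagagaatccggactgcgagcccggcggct
Pcdh8: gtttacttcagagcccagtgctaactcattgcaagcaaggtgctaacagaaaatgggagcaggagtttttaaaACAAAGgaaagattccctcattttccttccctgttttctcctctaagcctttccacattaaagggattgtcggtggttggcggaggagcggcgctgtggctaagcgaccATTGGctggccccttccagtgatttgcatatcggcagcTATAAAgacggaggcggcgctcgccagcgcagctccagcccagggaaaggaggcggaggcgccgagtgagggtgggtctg
Pcdh9: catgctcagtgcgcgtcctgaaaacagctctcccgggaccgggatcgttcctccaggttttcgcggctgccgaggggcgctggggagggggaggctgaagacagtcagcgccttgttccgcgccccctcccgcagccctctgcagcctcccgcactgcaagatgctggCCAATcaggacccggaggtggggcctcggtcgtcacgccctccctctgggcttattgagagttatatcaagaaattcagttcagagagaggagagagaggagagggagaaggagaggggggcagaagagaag
Pcdh10: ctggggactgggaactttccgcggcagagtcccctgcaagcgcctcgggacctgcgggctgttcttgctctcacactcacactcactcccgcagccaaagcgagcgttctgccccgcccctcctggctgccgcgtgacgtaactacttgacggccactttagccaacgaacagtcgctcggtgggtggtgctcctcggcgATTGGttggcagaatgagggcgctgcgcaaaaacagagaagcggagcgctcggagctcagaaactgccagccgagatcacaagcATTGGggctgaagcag
All 4 windows hold a CCAAT match, and no 2 marked matches overlap in them. CCAAT was searched after these sequences had been seen. It occurs in 37.4% of all 32851 promoter windows of this length, and in 17 of the 23 windows found for 20 of the 56 member genes. Pcdh8 alone of the 4 also holds TATAAA, present in 13.6% of all windows, and ACAAAG, present in 18.7%. CAGGTG is in none of the 4, in 5 of the 23 member windows and in 20.2% of all windows. The windows hold 26 (Pcdh17), 14 (Pcdh8), 18 (Pcdh9) and 24 (Pcdh10) CpG dinucleotides, against a median of 14 over the member windows and 7 over all windows. These matches describe the letters of the windows and say nothing of binding in these cells.

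Signals are MAS5 intensities that the authors scaled to a trimmed mean near 1500 on each array, and the median signal was 555 on MOE430A and 866 on MOE430B. Markers were read against the labelled cell types. Of 7 neural precursor markers 6 were at or above the array median on every array, as were 4 of 6 markers of oligodendrocyte progenitors. Against PDGF, 3 of the 7 precursor markers were higher with EGF at an adjusted p below 0.05 by limma. With NT-3 3 were higher and 2 lower. Summed signals of the oligodendrocyte progenitor markers were 51049 to 70094 in EGF samples, 144565 to 172700.5 with NT-3 and 96182 to 125226 in PDGF samples. Those of 5 astrocyte markers were 18455 to 29914 in EGF samples, 1809 to 2579 with NT-3 and 1754 to 4674 in PDGF samples. Those of 6 neuron markers were 13654 to 27577 in EGF samples, 13381 to 25801 with NT-3 and 29547 to 44113 in PDGF samples. These marker sums moved with the conditions but are led by their brightest genes, such as Olig1 (means of 42887 with EGF, 104350 with NT-3 and 60702 with PDGF). Single markers did not all follow. Against PDGF, 5 of 6 oligodendrocyte progenitor markers were lower with EGF, while with NT-3 3 were higher and 1, Gpr17, lower. Astrocyte markers were higher with EGF in 3 of 5, Gfap and Aqp4 not being called. Of 6 neuron markers 3 were lower with EGF and 3 with NT-3. The part of cell mix in the differences below was not tested. In such bulk RNA, fewer cells of a type and less RNA per cell cannot be told apart. EGF and PDGF samples shared 3 fluidics runs (arrays washed on 1 station in the same hour, per the settings files), whereas the samples with NT-3 shared 0 runs with them, so that NT-3 and hybridisation run cannot be told apart. RNA of the samples with NT-3 had a higher log2 ratio of 3' to 5' Actb signal (3.51 ± 0.27 on MOE430A, SD, n = 3) than RNA of PDGF samples (3.00 ± 0.23, n = 6), with an exact permutation p of 0.0238 (adjusted 0.0952 over 12 such tests, two-sided).

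A probe set was tested if its signal reached the array median in at least 3 of 15 arrays, which 55 member probe sets of 35 genes did. The 46 others averaged at most 798 in any condition. They left 21 genes without a tested probe set, namely 13 of the 22 beta protocadherins, Cdh1, Cdh5, Cdh8, Cdh9, Cdh16, Cdh17, Cdh18 and Pcdh12. Cdh1 is E-cadherin of epithelia, and its probe set 1448261_at averaged 131 in EGF samples, 114 with NT-3 and 94.1 in PDGF samples. Cdh5 is VE-cadherin of blood vessels, and its 1433956_at averaged 312 with EGF, 267 with NT-3 and 407 with PDGF. Both lay below the array median on every array. Of 7 endothelial markers, 3 (Pecam1, Tek and Tie1) were also below it on every array, whereas Kdr reached it on 13 of 15 arrays, Esam on 8, Emcn on 3 and Cldn5 on 2. Of 6 markers of epithelium and choroid plexus, 2 (Krt18 and Kl) were below it on every array. Epcam reached it on all 15, Krt8 on 9, Folr1 on 8 and Ttr on 5. At the other end, 24 member probe sets of 14 genes were at or above the median on every array. These genes were Cdh2, Cdh4, Cdh6, Cdh10, Cdh13, Cdh22, Pcdh8, Pcdh9, Pcdh10, Pcdh11x, Pcdh17, Pcdh19, Pcdhb15 and Pcdhb16. Signals of different probe sets are not compared with each other, since probes differ in brightness.

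In EGF against PDGF neurospheres, 10 of the 55 tested member probe sets (7 genes) were lower and 1 was higher, at an adjusted p below 0.05. Over all 23595 probe sets tested, 5.09% were lower and 5.64% higher, 10.7% in all, and the 11 member calls make 20%. The median log2 difference of the 55 was -0.33, against -0.03 over all probe sets, and 43 of the 55 were below 0. Delta protocadherins account for 7 of the 10 lower calls: 4 of 7 tested delta-1 and 3 of 14 tested delta-2 probe sets fell and 0 rose. Samples of the conditions did not overlap for 4 lower and 1 higher member probe sets, where 7.48% of all probe sets were separated in either direction.

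Pcdh17, a delta-2 protocadherin that recruits the WAVE complex at contacts between axons, had the smallest adjusted p among the members. Its probe set 1436920_at gave 1461 to 3171 (median 2059) in 6 EGF samples, against 5437 to 11165 (median 6431) in 6 PDGF samples. No EGF sample reached the lowest PDGF sample. The log2 difference was -1.68 ± 0.19 (SE), a level 3.21-fold lower with EGF (limma adjusted p = 1.04e-05), and it was -2.03 to -1.43 within the 3 fluidics runs. The second Pcdh17 probe set, 1453070_at, gave 997 to 2359 (median 1991) with EGF against 1941 to 7784 (median 4596) with PDGF, so the groups overlapped. It fell by 1.22 ± 0.36 in log2 units (adjusted p = 0.0374). That call was lost without any 1 of EGF replicates 3, 5 or 6 or PDGF replicates 1, 2, 4 or 5 (-1.43 to -1.04, adjusted p up to 0.0952).

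Pcdh11x is an X-linked delta-1 protocadherin. Signals of 1436449_at were 6694 to 11706 (median 8616) in EGF and 13866 to 24169 (median 19072) in PDGF samples, with no overlap. The difference was -1.12 ± 0.16 (adjusted p = 0.000151), or 2.17-fold lower with EGF, and lay at -1.15 to -1.08 within runs. Its other probe set, 1438889_at, gave 2692 to 6399.8 (median 4151) with EGF and 5825 to 12824 (median 11508) with PDGF, a difference of -1.24 ± 0.23 (adjusted p = 0.00139). Here 1 PDGF sample, replicate 3, lay within the EGF range and the other 5 above it.

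Pcdh9, also delta-1, was lower at 2 of its 3 tested probe sets. Signals of 1442659_at were 6628 to 10416 (median 8969) in EGF and 9868 to 15669.9 (median 12808) in PDGF samples, a narrow overlap at the edge of both groups, and the difference was -0.55 ± 0.12 (adjusted p = 0.00561). The probe set 1429861_at gave 3627 to 8424 (median 5293) with EGF and 7424 to 11742 (median 9032) with PDGF, a difference of -0.73 ± 0.17 (adjusted p = 0.00922). The third, 1458269_at, varied from 322 to 1614 (median 1374) in EGF and from 588 to 1826 (median 1563) in PDGF samples and did not pass (-0.19 ± 0.45, adjusted p = 0.876).

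Pcdh8, a delta-2 protocadherin known in rat as arcadlin, which neuronal activity induces, gave 3806 to 6779 (median 5324) with EGF against 8127 to 22478 (median 11192) with PDGF at 1447825_x_at. These groups did not overlap, and the difference of -1.22 ± 0.23 (adjusted p = 0.00171) corresponded to a 2.33-fold lower level. The suffix of this probe set marks probes that may also bind related sequences. Its other probe set, 1417051_at, on the A chip, gave 259 to 509 (median 430.5) with EGF and 419 to 1425 (median 663) with PDGF, a difference of -0.73 ± 0.30 that did not pass (adjusted p = 0.151).

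On mouse chromosome 14, Pcdh8, Pcdh17, Pcdh20 and Pcdh9 follow each other with 1, 2 and 0 protein-coding genes between them in the RefSeq annotation. Pcdh20, the neighbour not yet described, gave 81.3 to 668 (median 461) with EGF and 588 to 887 (median 753) with PDGF at 1424701_at. Its difference of -0.91 ± 0.39 did not pass (adjusted p = 0.164). The remaining delta protocadherins, Pcdh1, Pcdh7, Pcdh10, Pcdh18 and Pcdh19, gave no call between EGF and PDGF. The nearest to the threshold was Pcdh19, whose human counterpart is mutated in an epilepsy limited mostly to females, at 1455145_at (-0.50 ± 0.18, adjusted p = 0.0817).

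**Figure D1:**
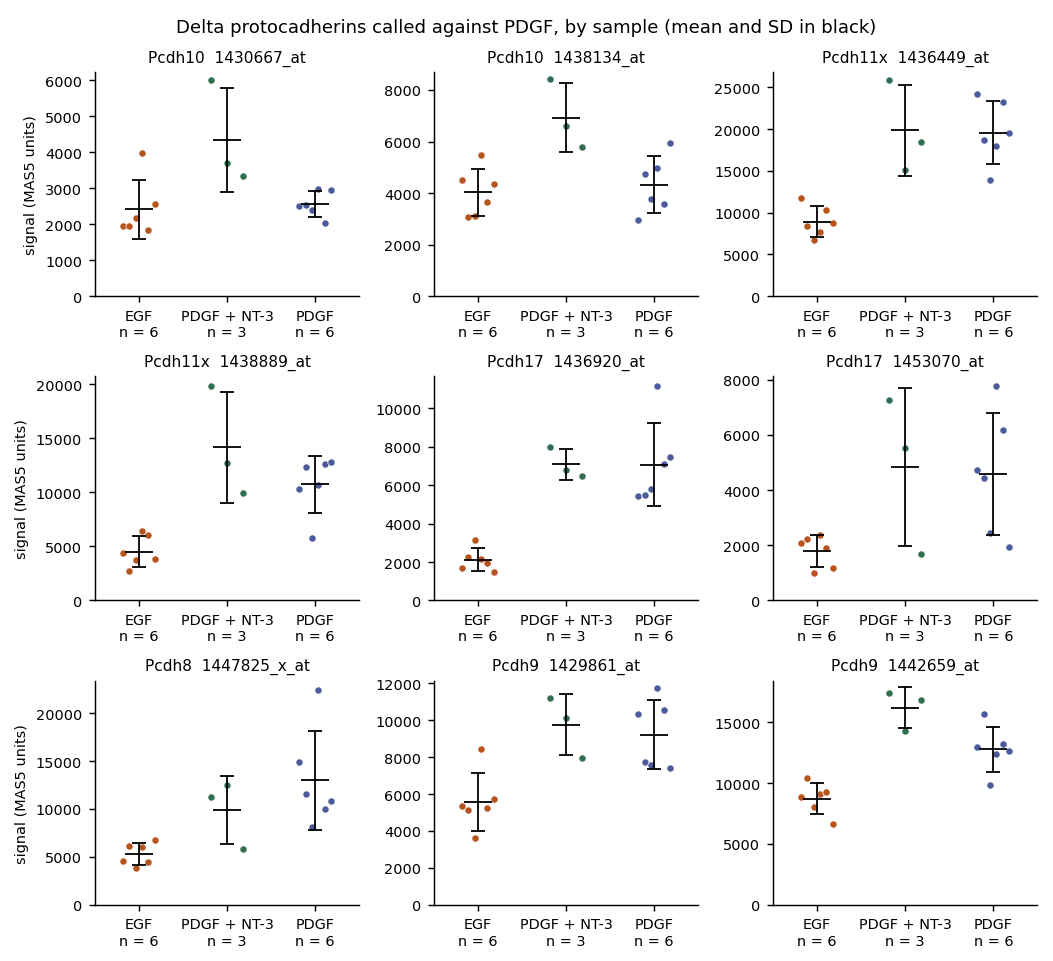
Signals of the 9 delta protocadherin probe sets called with EGF or NT-3 against PDGF (vertical axis, MAS5 units, linear, from 0) in each of 6 EGF, 3 PDGF + NT-3 and 6 PDGF samples, with the mean and SD in black. For Pcdh17 1436920_at the EGF samples (1461 to 3171) sit below all samples of the other conditions, as they do for Pcdh11x 1436449_at, while for Pcdh10 1438134_at the samples with NT-3 are the highest group by mean.

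Among the other families, Pcdh15 was lower with EGF at 1444317_at, while its other tested probe set, 1421503_at, had the same sign but was not called. Pcdh15 is best known as the lower end of the tip link of inner ear hair cells, where it pairs with Cdh23. At 1444317_at it gave 601 to 1524 (median 1004) in EGF and 1344 to 3271 (median 2435) in PDGF samples, overlapping at 1 EGF sample. The difference was -1.11 ± 0.24 (adjusted p = 0.0052).

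All 10 tested clustered protocadherin probe sets had a difference below 0 between EGF and PDGF, from -1.09 (Pcdhb2 1421548_at) to -0.01 (Pcdhb15 1443421_s_at). Several were dim and reached the filter mainly through PDGF, which favoured a difference below 0. Pcdhb2 reached the array median on 4 PDGF, 0 EGF and 0 NT-3 arrays, Pcdhb9 on 4, 1 and 0, and Pcdhb17 on 3, 1 and 1. Pcdhb20 reached it on 5, 0 and 3, whereas Pcdhb15 and Pcdhb16 had a probe set above it on all 15. Of the 10 probe sets 2 passed. Pcdhb21 1420422_at gave 244 to 858 (median 507) with EGF and 768 to 1422 (median 1010.3) with PDGF (-0.99 ± 0.27, adjusted p = 0.0207). Pcdhb20 1449583_at gave 267 to 556 (median 514) with EGF and 585 to 1173 (median 993) with PDGF, without overlap (-0.89 ± 0.25, adjusted p = 0.028). The call of Pcdhb21 was lost without PDGF replicate 5 (differences of -1.14 to -0.81 over the samples left out, adjusted p up to 0.0557). That of Pcdhb20 was lost without EGF replicate 5 or PDGF replicates 1, 4 or 5 (-1.01 to -0.75, adjusted p up to 0.0723). Beta protocadherins are close copies of each other, so that a probe set may also bind transcripts of its neighbours.

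Classical cadherins went the other way in 1 case. Cdh4, or R-cadherin, a type I cadherin of the retina and forebrain, gave 9187 to 20762 (median 10158) in EGF and 4782 to 7567 (median 6589) in PDGF samples at 1456397_at, with no overlap. It rose by 0.84 ± 0.18 in log2 units, 1.79-fold (adjusted p = 0.00439), and by 0.76 to 0.89 within runs. Its probe set on the A chip, 1449422_at, gave 1688 to 3227 (median 2338) with EGF and 1043 to 1862 (median 1628) with PDGF and just missed the threshold (0.62 ± 0.20, adjusted p = 0.0538). Of the 11 tested type II probe sets 0 passed with limma, 4 having an unadjusted p below 0.05. The type II members with the highest differences were Cdh20 1450312_at (1.15 ± 0.41, adjusted p = 0.0853) and Cdh22 1424767_at (0.78 ± 0.26, adjusted p = 0.0684). Of the 4 atypical probe sets (Cdh13, Cdh23 and Cdh26) 0 passed, and 0 had an unadjusted p below 0.05. N-cadherin was not called either, with 0.36 ± 0.20 at Cdh2 1418815_at (adjusted p = 0.316) and 0.43 ± 0.21 at Cdh2 1449244_at (adjusted p = 0.25).

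**Figure D2:**
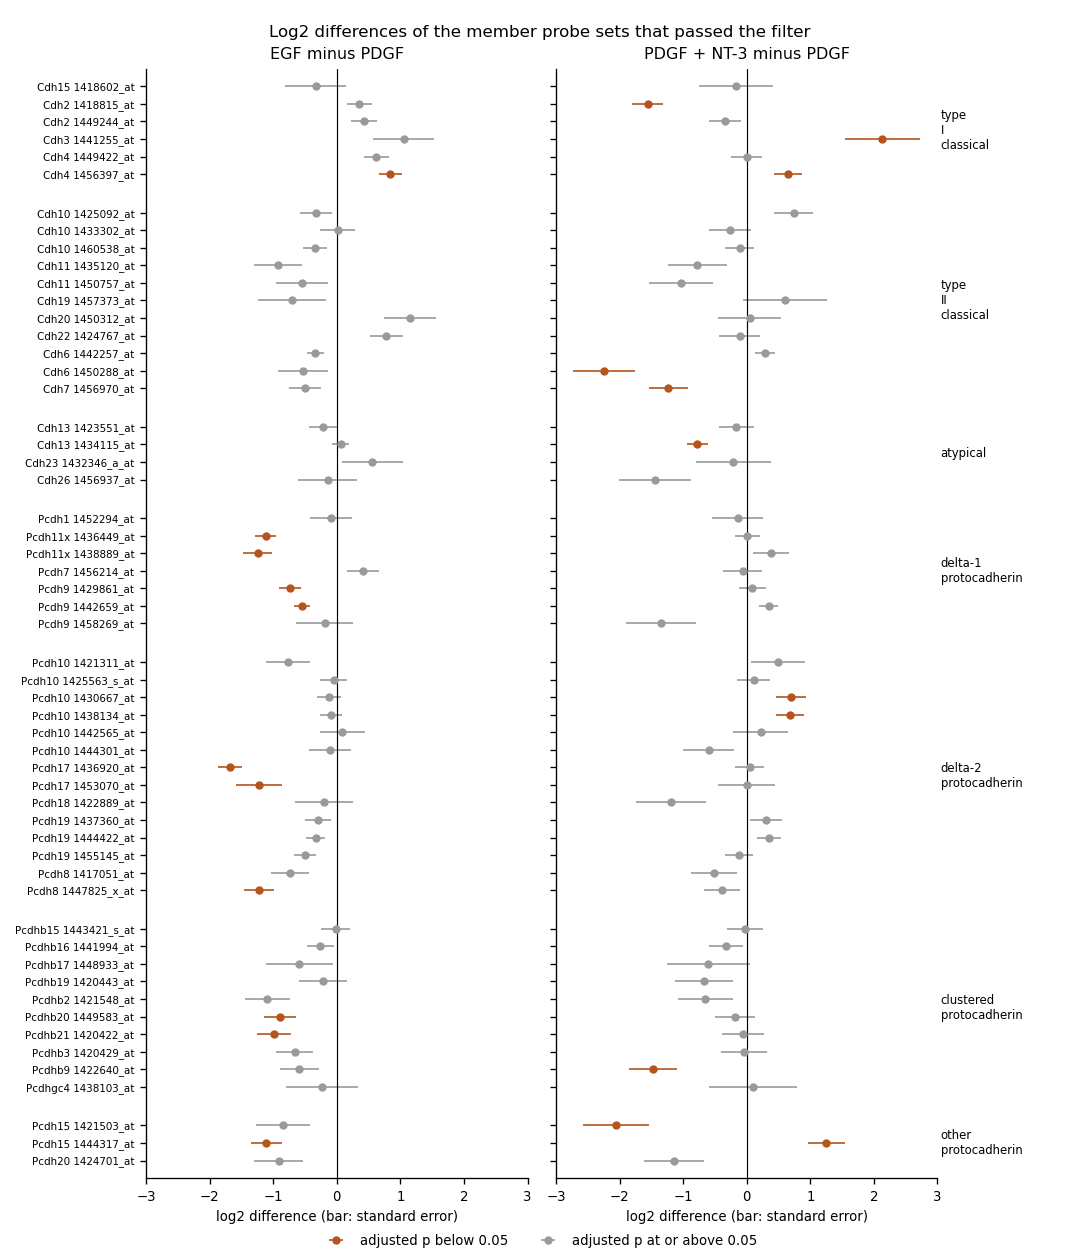
Log2 differences (horizontal axis, bars of 1 standard error) of the 55 tested member probe sets, grouped by family down the page, for EGF minus PDGF on the left and PDGF + NT-3 minus PDGF on the right. On the left the 10 lower calls include 7 delta protocadherin probe sets, and on the right 5 higher and 6 lower calls are spread over the families.

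Adding NT-3 to PDGF gave 5 higher and 6 lower member probe sets among the 55 (4 and 6 genes). That is 20%, close to the 19.1% of all probe sets called (7.31% higher and 11.8% lower), so the family as a whole was called at about the background share. Samples of the conditions did not overlap for 5 higher and 7 lower members, where 18.8% of all probe sets were separated in either direction. The median log2 difference was -0.11 for the members and -0.09 over all probe sets. This comparison uses the same PDGF samples as the one with EGF. The 3' to 5' ratio of Actb on MOE430A given above was also higher with NT-3. On MOE430B the log2 ratios with NT-3 and with PDGF were 3.56 and 3.11 for Actb and 4.16 and 3.78 for Gapdh. Their exact permutation p-values were 0.0476 and 0.0357 (both adjusted 0.0952, two-sided). Gapdh on MOE430A gave 4.04 and 3.89 (exact permutation p = 0.452). The part of RNA quality in the differences was not tested. Of the 11 calls, 4 were on dim probe sets that reached the filter through the brighter condition, so these had to differ: Cdh3 through NT-3, and Pcdhb9, Cdh6 1450288_at and Pcdh15 1421503_at through PDGF. With the filter on the mean over all samples these 4 were not tested.

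N-cadherin gave the smallest adjusted p. At Cdh2 1418815_at the samples with NT-3 gave 986, 773 and 877, against 1707 to 3486 (median 2911) in PDGF samples. All 3 lay below the lowest PDGF sample. Cdh2 fell by 1.56 ± 0.24 in log2 units there, 2.95-fold (adjusted p = 0.000428), and the difference was -1.69 to -1.48 with each sample left out in turn. The other Cdh2 probe set, 1449244_at, gave 1113, 1755 and 631 with NT-3 against 1262 to 1554 (median 1372) in PDGF samples. Its samples with NT-3 spread to both sides of the PDGF range, and the difference of -0.34 ± 0.26 did not pass (adjusted p = 0.376).

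T-cadherin (Cdh13) is held in the membrane by a lipid anchor and has no cytoplasmic part. At 1434115_at it gave 5392, 4625 and 3892 with NT-3 and 6043 to 9395 (median 8395) in PDGF samples, with no overlap. It fell by 0.78 ± 0.17 in log2 units (adjusted p = 0.00418). Its A-chip probe set 1423551_at gave 897, 1065 and 495 with NT-3 and 716 to 1027 (median 885) with PDGF and did not pass (-0.17 ± 0.27, adjusted p = 0.716).

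Of the type II cadherins, Cdh7 and Cdh6 had lower calls. Cdh7 1456970_at gave 859, 418 and 468 with NT-3 and 1233 to 1609.8 (median 1494) in PDGF samples, without overlap (-1.24 ± 0.31, adjusted p = 0.0101). The Cdh7 call was lost when each chip was fitted alone (adjusted p = 0.052). Cdh6 1450288_at gave 34, 274 and 68 with NT-3 and 388 to 1128 (median 612) with PDGF, again without overlap (-2.24 ± 0.49, adjusted p = 0.00457). This Cdh6 signal reached the array median on 5 of 15 arrays, 4 of them PDGF and 0 with NT-3, so its fold rests on dim values. Cdh10 1425092_at, at 1963, 1948 and 1826 with NT-3 and 946 to 1513 (median 1070.5) with PDGF, did not overlap either but missed the threshold (0.74 ± 0.30, adjusted p = 0.0977).

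Higher calls with NT-3 among type I cadherins were Cdh3 and Cdh4. Cdh3, or P-cadherin, gave 1547, 1154 and 1045 with NT-3 and 41.8 to 553 (median 203) in PDGF samples at 1441255_at, without overlap. It rose by 2.13 ± 0.59 in log2 units (adjusted p = 0.0181), a call lost without NT-3 replicate 1 (1.94 to 2.36 over the samples left out, adjusted p up to 0.0687) and with array weights (adjusted p = 0.0779). Its signal is dim and reached the array median on 4 of 15 arrays, the 3 with NT-3 and 1 with EGF, so it was tested only because NT-3 is the brighter condition. Cdh4 1456397_at gave 11413, 9624 and 9182 with NT-3, all above the PDGF samples described above, and rose by 0.65 ± 0.22 (adjusted p = 0.0467). That call was lost without any 1 of 9 samples: EGF replicates 1 and 5, any of the 3 with NT-3, and PDGF replicates 1, 2, 5 and 6. Over all samples left out its difference was 0.56 to 0.71 (adjusted p up to 0.161). The call was also lost with median centring (adjusted p = 0.0804), no filter (0.058) or array weights (0.108).

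**Figure D3:**
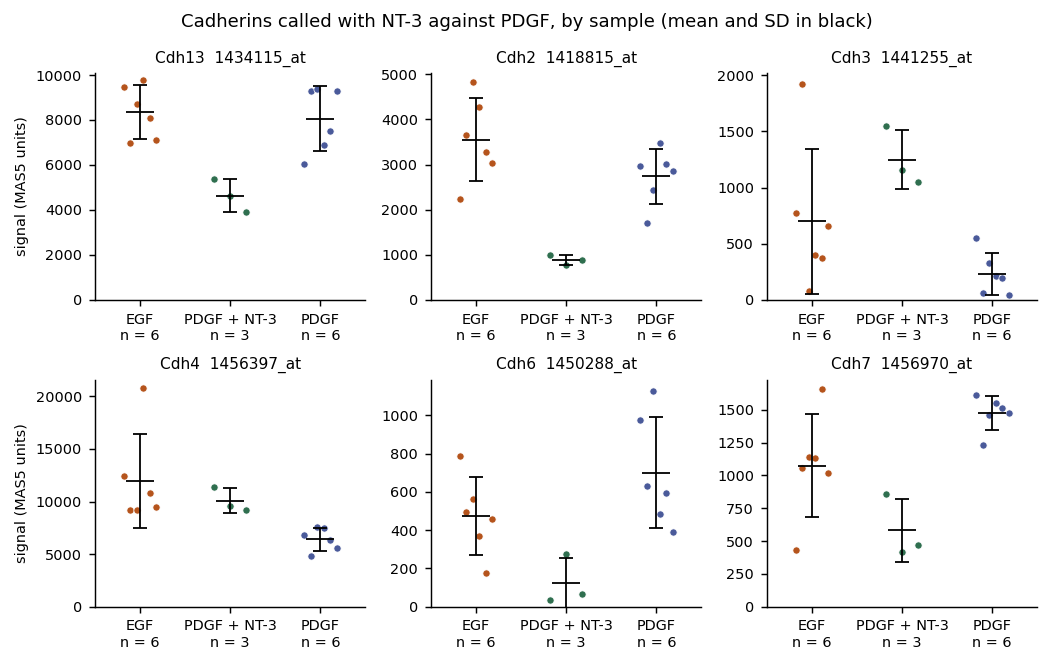
Signals of the 6 classical and atypical cadherin probe sets called with NT-3 against PDGF (vertical axis, MAS5 units, linear, from 0) in each EGF, PDGF + NT-3 and PDGF sample, with the mean and SD in black (bars stop at 0). The 3 samples with NT-3 lie below all PDGF samples for Cdh2, Cdh13, Cdh6 and Cdh7 and above them for Cdh4 and Cdh3.

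Among protocadherins, Pcdh10, a delta-2 member called OL-protocadherin needed for the growth of striatal axons in mice, rose with NT-3 at 2 of its 6 tested probe sets. At 1438134_at it gave 8412, 6585 and 5779.9 with NT-3 and 2940.5 to 5935 (median 4266) in PDGF samples, overlapping at 1 PDGF sample (0.68 ± 0.22, adjusted p = 0.037). At 1430667_at it gave 5999.9, 3706 and 3335 with NT-3 and 2031 to 2968 (median 2522) with PDGF, without overlap (0.70 ± 0.23, adjusted p = 0.0443). The call at 1438134_at was lost without any 1 of NT-3 replicates 1 or 2 or PDGF replicates 1, 3 or 5 (0.54 to 0.80, adjusted p up to 0.164), and that at 1430667_at without any 1 of EGF replicates 3 or 6, NT-3 replicates 1 or 2 or PDGF replicates 1, 2, 3 or 5 (0.45 to 0.86, adjusted p up to 0.246). Both calls were also lost with median centring (adjusted p = 0.0627 at 1438134_at and 0.0727 at 1430667_at) and array weights (0.0767 and 0.0769). That at 1438134_at was lost with the 2 conditions alone (0.0521), and that at 1430667_at with no filter (0.0565) or each chip alone (0.0835). The other 4 Pcdh10 probe sets had differences of -0.60 (1444301_at) to 0.49 (1421311_at) and did not pass. Of the 7 delta-1 probe sets 0 passed with limma, 2 having an unadjusted p below 0.05. The delta-2 member Pcdh17, at 1436920_at, gave 7989, 6775 and 6471 with NT-3, inside the PDGF range (0.04 ± 0.23, adjusted p = 0.921). Pcdhb9 1422640_at was the 1 clustered protocadherin called, at 165, 215 and 258 with NT-3 and 374 to 943 (median 746) with PDGF. It fell by 1.48 ± 0.38 (adjusted p = 0.0121), a call lost without NT-3 replicate 1 (-1.63 to -1.34, adjusted p up to 0.0507). It reached the array median on 4 PDGF, 1 EGF and 0 NT-3 arrays.

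Probe sets of 1 gene did not always move together. Of the 13 genes with several tested probe sets, Pcdh15 had calls in opposite directions for NT-3. At 1444317_at its signals were 6161, 4517 and 6087 with NT-3, above every PDGF sample at 1344 to 3271 (median 2435), and it rose by 1.25 ± 0.30 (adjusted p = 0.00757). At 1421503_at they were 45.7, 232 and 51.1 with NT-3, below every PDGF sample at 349 to 806 (median 528), and it fell by 2.06 ± 0.52 (adjusted p = 0.0118). The second is dim, at or above the array median on 3 of 15 arrays, all of them PDGF samples, so it was tested only because PDGF is the brighter condition. Its call was lost without NT-3 replicates 1 or 3 (-2.56 to -1.79, adjusted p up to 0.0579). Cdh6 1442257_at likewise differed from 1450288_at: it gave 3943, 3868 and 4043 with NT-3 and 2516 to 4439 (median 3146) with PDGF, a difference of 0.29 ± 0.16 that did not pass (adjusted p = 0.227). Which exons or strands these probe sets match was not analysed here, so neither can be preferred as the level of the gene.

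**Figure D4:**
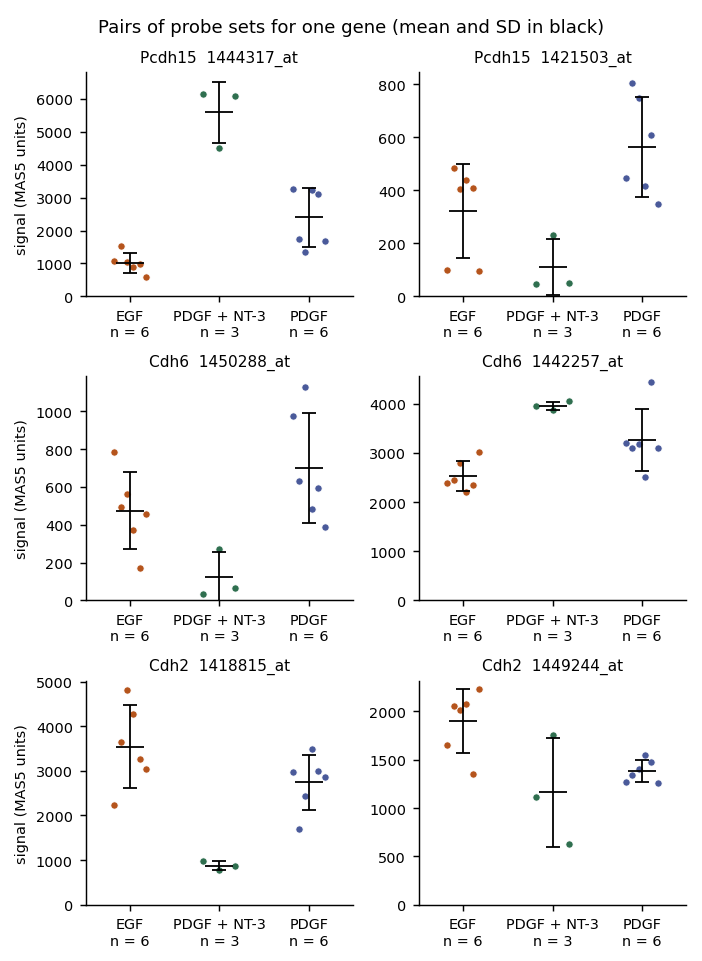
Signals of pairs of probe sets for Pcdh15, Cdh6 and Cdh2 (vertical axis, MAS5 units, linear, from 0) in each EGF, PDGF + NT-3 and PDGF sample, with the mean and SD in black. SD bars that would pass below 0 stop there. The samples with NT-3 are the highest group at Pcdh15 1444317_at and the lowest at Pcdh15 1421503_at.

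Between EGF neurospheres and those with NT-3, 13 of the 55 member probe sets were lower with EGF (9 genes) and 4 higher (3 genes). Over all probe sets 7.9% were lower and 12.3% higher, 20.2% in all, against 30.9% of the members. The median log2 difference was -0.15 for the members and 0.08 over all probe sets. The samples did not overlap for 12 lower and 3 higher members, where also 20.2% of all probe sets were separated. This comparison shares its samples with the other comparisons and also sets 2 brain regions against each other. On MOE430B the log2 ratio of 3' to 5' signal was lower in EGF than in NT-3 samples for Actb (2.89 ± 0.24 with EGF and 3.56 ± 0.34 with NT-3) and for Gapdh (3.66 ± 0.13 with EGF and 4.16 ± 0.05 with NT-3, SD, n = 6 and 3). Both tests gave the smallest exact permutation p that these numbers allow, 0.0119 (adjusted 0.0714 over the 12 tests, two-sided), and the part of RNA quality in the calls was not tested. The lower calls held 4 of 7 delta-1 and 6 of 14 delta-2 probe sets, Pcdh10 1421311_at, 1430667_at and 1438134_at among the delta-2 calls. Those of Pcdh10 were lost without any 1 of EGF replicates 3, 4 or 5, NT-3 replicates 1, 2 or 3 or PDGF replicates 1, 2, 3, 4, 5 or 6 (-1.43 to -0.97, adjusted p up to 0.158) at 1421311_at, NT-3 replicate 1 (-0.99 to -0.57, adjusted p up to 0.129) at 1430667_at and NT-3 replicate 1 (-0.90 to -0.63, adjusted p up to 0.0987) at 1438134_at. The Pcdh9 call at 1429861_at was lost without NT-3 replicate 1 (-0.96 to -0.71, adjusted p up to 0.0593). Pcdh15 1444317_at differed by -2.36 ± 0.30 (adjusted p = 3.7e-05), with every EGF sample below the 3 with NT-3. Pcdh17 1436920_at differed by -1.72 ± 0.23 (adjusted p = 7.14e-05) and Pcdh11x 1438889_at by -1.62 ± 0.28 (adjusted p = 0.000676), both without overlap. Pcdh9 1442659_at gave -0.89 ± 0.15 (adjusted p = 0.000462), and Pcdh19 1444422_at gave -0.68 ± 0.19 (adjusted p = 0.0171). Of these the Pcdh19 call was lost without NT-3 replicate 2 (-0.82 to -0.50, adjusted p up to 0.106). Not every tested probe set of these genes was called. Pcdh15 1421503_at and Pcdh9 1458269_at differed in sign from those called and did not pass. Pcdh17 1453070_at and Pcdh19 1437360_at and 1455145_at had the same sign but did not pass. Probe sets of Pcdh10 also differed in sign and call.

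The higher calls with EGF against NT-3 were both Cdh2 probe sets, Cdh13 1434115_at and Cdh6 1450288_at. Cdh2 1418815_at gave 2228 to 4822 (median 3459) with EGF, all above the 3 samples with NT-3, and rose by 1.92 ± 0.24 (adjusted p = 3.7e-05). Cdh2 1449244_at gave 1348 to 2238 (median 2036) with EGF and rose by 0.77 ± 0.26 (adjusted p = 0.043), a call lost without any 1 of EGF replicates 1, 2, 3, 4 or 6, NT-3 replicates 1 or 3 or PDGF replicates 1, 2, 3, 4 or 5 (0.41 to 1.11, adjusted p up to 0.261). Cdh13 1434115_at gave 6977 to 9784 (median 8396) with EGF, also without overlap (0.83 ± 0.17, adjusted p = 0.00192). Its other tested probe set, 1423551_at, did not pass (-0.05 ± 0.27, adjusted p = 0.929). The Cdh6 gene was split here too, with 1.71 ± 0.49 at 1450288_at (adjusted p = 0.0198) and -0.63 ± 0.16 at 1442257_at (adjusted p = 0.0116). The call at 1450288_at was lost without NT-3 replicates 1 or 3 (1.31 to 2.27, adjusted p up to 0.107). Cdh10 1425092_at was lower with EGF (-1.07 ± 0.30, adjusted p = 0.0195), a call lost without NT-3 replicates 1 or 2 (-1.20 to -0.93, adjusted p up to 0.0583). Tested Cdh10 probe sets differed in sign and call here. Pcdh8 1447825_x_at was lower with EGF (-0.84 ± 0.28, adjusted p = 0.0462), while Pcdh8 1417051_at was not called. The call was lost without any 1 of 10 samples: EGF replicates 1, 3, 4 and 5, NT-3 replicates 1 and 2, and PDGF replicates 1, 2, 5 and 6 (-1.18 to -0.63, adjusted p up to 0.198). Other settings also ended calls of EGF against NT-3. With array weights these were Pcdh8 1447825_x_at (adjusted p = 0.0936), Pcdh10 1421311_at (0.114) and 1438134_at (0.0519), Pcdh19 (0.0641), Cdh2 1449244_at (0.0776) and Cdh10 (0.0688). With the 2 conditions alone they were Pcdh10 1421311_at (0.111) and 1430667_at (0.0536), Cdh2 1449244_at (0.105), Cdh10 (0.0561) and Cdh6 1450288_at (0.0512). With no filter they were Pcdh8 (0.0564), Pcdh10 1421311_at (0.0585) and Cdh2 1449244_at (0.0541), and with median centring Pcdh8 (0.0653) and Cdh2 1449244_at (0.0923). Each chip alone ended those of Pcdh19 (0.0507) and Cdh6 1442257_at (0.0582), quantile normalization that of Cdh2 1449244_at (0.0559) and a pseudocount of 16 that of Pcdh10 1421311_at (0.054).

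The proteins that cadherins work with were measured by 1 probe set per gene, and their values are log2 differences with SE. Over all probe sets tested, 10.7% were called with EGF against PDGF (5.64% higher, 5.09% lower). With NT-3 against PDGF 19.1% were called (7.31% higher, 11.8% lower). Fitted with 1 probe set per gene, 1807 and 2943 of 13882 were called. Whether any list differed from these shares was not tested. Of 10 tested genes of catenins and the adhesion plaque, 3 rose and 0 fell with EGF against PDGF (median log2 difference 0.16). They were Ctnna1, alpha-catenin (0.81 ± 0.10, adjusted p = 3.1e-05), Afdn, the nectin-bound scaffold afadin (1.07 ± 0.16, adjusted p = 0.000154), and Vcl, vinculin (0.79 ± 0.24, adjusted p = 0.0445). With NT-3 against PDGF, 1 of these 10 rose, Ctnnb1 or beta-catenin (0.83 ± 0.11, adjusted p = 0.000155). In that comparison 2 fell, Ctnna2 (-1.32 ± 0.40, adjusted p = 0.0293) and Pkp4 (-0.50 ± 0.14, adjusted p = 0.0186). The call of Vcl was lost without any 1 of EGF replicates 2, 3, 4, 5 or 6 or PDGF replicates 1, 4, 5 or 6 (0.58 to 0.88, adjusted p up to 0.101). That of Ctnna2 was lost without any 1 of NT-3 replicate 3 or PDGF replicates 1 or 2 (-1.77 to -0.64, adjusted p up to 0.191), and that of Pkp4 without NT-3 replicate 2 (-0.60 to -0.36, adjusted p up to 0.0991). Second probe sets of Ctnna1 (0.80 with EGF) and Pkp4 (-1.66 with NT-3) were also called, and that of Ctnnb1 (0.82 with NT-3) was not.

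Cytoplasmic partners of protocadherins fell with EGF against PDGF in 4 of 10 tested genes, and 0 rose (median log2 difference -0.14), where 5.09% of all probe sets were lower. With 1 probe set per gene 905 of 13882 were lower. Among brighter probe sets, with the filter at the 75th percentile, 1246 of 12342 were lower. These were Wasf1 (-0.98 ± 0.13, adjusted p = 6.19e-05), Cyfip2 (-1.0 ± 0.21, adjusted p = 0.00339) and Nckap1 (-0.42 ± 0.12, adjusted p = 0.0354), all parts of the WAVE complex, and the kinase Fyn (-0.62 ± 0.11, adjusted p = 0.000716). With NT-3 against PDGF 1 of the 10 rose, Ppp1ca (0.77 ± 0.17, adjusted p = 0.00495), and 1 fell, Cyfip2 (-0.76 ± 0.25, adjusted p = 0.0443). The other 2 tested Cyfip2 probe sets gave -0.49 and 0.64 there without a call, so that gene disagreed in sign. With EGF they gave -0.87 and -0.23, 1 of them called. A second Fyn probe set gave -0.23 with EGF and did not pass. The Nckap1 call with EGF was lost without any 1 of EGF replicates 1, 2, 5 or 6 or PDGF replicates 1, 2, 3 or 6 (-0.49 to -0.37, adjusted p up to 0.0862). The Cyfip2 call with NT-3 was lost without any 1 of EGF replicates 2, 3 or 5, NT-3 replicates 1, 2 or 3 or PDGF replicates 2, 4, 5 or 6 (-0.89 to -0.56, adjusted p up to 0.196). Regulators of clustered protocadherin promoters gave 0 calls of 9 with EGF against PDGF by limma, and 0 had an unadjusted p below 0.05. With NT-3 3 of the 9 rose, Ctcf (1.11 ± 0.22, adjusted p = 0.00221), Smchd1, which keeps clustered protocadherin genes silent in mice (1.01 ± 0.23, adjusted p = 0.00546), and Wapl, which releases cohesin (0.73 ± 0.23, adjusted p = 0.0342). A second Ctcf probe set gave 0.34 and a second Smchd1 probe set 0.75, and neither passed. The other 3 tested Wapl probe sets gave -1.35 to 0.41 without a call, so that gene disagreed in sign. The Wapl call was lost without any 1 of NT-3 replicates 1, 2 or 3 or PDGF replicates 2, 3, 5 or 6 (0.67 to 0.79, adjusted p up to 0.112).

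Proteases that shed or cleave cadherins rose in 2 of 9 tested genes with EGF against PDGF, the membrane protease Mmp14 (2.10 ± 0.35, adjusted p = 0.000599) and Adam17 (0.77 ± 0.22, adjusted p = 0.0345). They rose in 2 of 9 with NT-3 as well, Adam17 (0.92 ± 0.27, adjusted p = 0.0265) and the gamma-secretase subunit Aph1a (1.47 ± 0.30, adjusted p = 0.00324). The other 2 tested Aph1a probe sets gave -0.44 and -0.20 and did not pass, so probe sets of that gene disagreed in sign. A second Mmp14 probe set gave 1.12 with EGF and was not called. The same held for a second Adam17 probe set, at 0.76 with EGF and 0.78 with NT-3. Over all probe sets tested, 5.64% were higher with EGF and 7.31% with NT-3, both against PDGF. With 1 probe set per gene 902 and 1031 of 13882 were higher. The Adam17 call with EGF was lost without any 1 of EGF replicates 1, 2, 3, 5 or 6 or PDGF replicates 1, 3 or 4 (0.66 to 0.91, adjusted p up to 0.0844), and that with NT-3 without NT-3 replicates 1 or 2 (0.82 to 1.07, adjusted p up to 0.095). Transcription factors that repress Cdh1 gave 0 calls of 6 with EGF against PDGF by limma, 3 having an unadjusted p below 0.05. With NT-3 Zeb1 rose (0.67 ± 0.15, adjusted p = 0.00601), although its other 2 tested probe sets gave -0.09 and 0.26 without a call, and Snai2 fell (-2.01 ± 0.56, adjusted p = 0.0186), a call lost without NT-3 replicate 3 (-2.37 to -1.60, adjusted p up to 0.0946). Among 13 tested relatives of the superfamily, the giant cadherin Fat1 rose with EGF (0.54 ± 0.16, adjusted p = 0.039) and with NT-3 (0.70 ± 0.20, adjusted p = 0.0214), both against the same PDGF samples. The Fat1 call with EGF was lost without any 1 of EGF replicates 2, 3, 5 or 6 or PDGF replicates 1, 2, 3 or 6 (0.45 to 0.65, adjusted p up to 0.0956), and that with NT-3 without NT-3 replicates 1 or 3 (0.59 to 0.91, adjusted p up to 0.099). Clstn3, a calsyntenin of synapses, fell with NT-3 (-2.96 ± 0.61, adjusted p = 0.00331). Its signals were widely spread with NT-3, at 55.4 to 1267, just below the PDGF samples at 1324 to 2738. The difference was -4.10 to -2.29 over the samples left out (adjusted p up to 0.0251).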

How the data were processed

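Gene expression was measured in 15 RNA samples of mouse neurospheres on 30 arrays, 2 per sample. The authors deposited 1 linear intensity per probe set and array. The submitters' processing notes name MAS5 for it without a version. The mean of every array, trimmed by 2% at each end, was 1500.2 to 1500.77. No detection calls were used. Log2 values were taken after adding to each signal the 10th percentile of the chip (52.0 on MOE430A and 115 on MOE430B), so fold changes of dim probe sets are understated. The number of arrays limits the precision.

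Probe sets with 1 symbol in the platform tables (35041, of which 34837 matched RefSeq genes) were kept when their signal reached the array median in at least 3 of 15 arrays, which left 23595. They were fitted over all 15 samples with limma 3.58.1 in R 4.3.3 (eBayes with trend, 12 residual degrees of freedom), checked on simulated data, and p-values, two-sided, were adjusted by Benjamini-Hochberg over all probe sets of a comparison. Tables were made with pandas 2.3.3 in Python 3.11.15. RNA quality was compared by exact permutation. Genes of the partner lists were read by 1 probe set each, from MOE430A where present and otherwise the brightest. EGF and PDGF samples with the same number were not treated as paired: their deviations from the group means correlated at 0.02 to 0.09.

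The members and the lists were chosen with earlier results of these data known. Named members are the called probe sets with the smallest adjusted p in each direction, the 8 genes of highest signal, and genes whose probe sets differed in sign or call; named list genes are up to 4 per list by adjusted p. Pcdhb2, Pcdhb15 and members near the threshold were named after their values were seen. Alternatives covered normalization, pseudocount, filter, probe set choice, samples, array weights, blocks and samples left out.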

Additional observations from a re-analysis of the deposited data

Results flagged for a closer look

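In 4 of 42 groups of 6 samples of named members, 1 sample stood apart from the other 5 by Dixon's criterion, where chance alone marks about 1 group in 20. For Cdh4 1456397_at, EGF replicate 4 had a signal of 20762, above the other 5 EGF samples at 9187 to 12472. For Pcdhb20 1449583_at, EGF replicate 5 had 267, below the others at 484 to 556. For Cdh7 1456970_at, PDGF replicate 2 had 1233, below the others at 1458 to 1609.8. For Pcdh11x 1438889_at, PDGF replicate 3 had 5825, below the others at 10317 to 12824.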

How the results depend on the processing

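Among 30 named results, 716 of 815 alternatives kept direction and call, 99 lost the call and 0 reversed it. Many of these alternatives only left out a sample, so they share most of their data. Leaving aside the fits within single runs, 10 of the 30 results kept direction and call in every alternative. Limits were the 3 samples with NT-3, their separate hybridisation runs, and the absence of detection calls for dim probe sets.

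EGF against PDGF: the 1 higher call became 3 with quantile normalization, the filter at the 75th percentile, each chip alone, the 2 conditions alone or array weights, 2 with median centring, the filter on the mean, the fluidics run as a block or the replicate block, and 1 to 2 with a sample left out. The 10 lower calls became 6 with 1 probe set per gene and 7 to 11 with a sample left out. Within single runs of 4 samples the higher calls were 0, 0 and 0 and the lower 0, 0 and 2 by limma, with 3035, 2978 and 3378 of all probe sets at an unadjusted p below 0.05.

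NT-3 against PDGF: the 5 higher calls became 2 with median centring, 1 with 1 probe set per gene or array weights, and 1 to 5 with a sample left out. The lowest count came without NT-3 replicate 1. PDGF replicates 1 and 5 and NT-3 replicate 2 left 2, and PDGF replicates 2 and 3 left 3. The 6 lower calls became 2 with the filter at the 75th percentile, 3 with the filter on the mean, and 5 to 8 with a sample left out.

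EGF against NT-3: the 4 higher calls became 2 with 1 probe set per gene or the 2 conditions alone and 3 to 5 with a sample left out. The 13 lower calls became 5 with 1 probe set per gene, 8 with array weights and 7 to 14 with a sample left out, 7 without NT-3 replicate 1.

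With the replicate number as a replicate block, fitted on the numbers both conditions share, the calls with NT-3 against PDGF were 0 higher and 0 lower by limma, and those of EGF against NT-3 were 1 higher and 5 lower. Over all probe sets 5417 and 5356 had an unadjusted p below 0.05 there. The block used 3 pairs in these comparisons, and same-numbered samples did not deviate together (correlations of -0.04 to 0.04), so the samples share only a number. In EGF against PDGF the replicate block ended the calls of Pcdhb21 1420422_at (adjusted p = 0.0549) and Pcdhb20 1449583_at (adjusted p = 0.0597), and 5 of 6 numbers matched best with their own.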

Other observations

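Alpha protocadherins, whose probe sets match several genes at once and were not members, were measured by 6 probe sets on MOE430A, in signals described without a test. The probe set 1420798_s_at, which matches 14 symbols, averaged 1568 ± 222 in EGF samples, 1269 ± 642 with NT-3 and 1951 ± 519 in PDGF samples (SD, n = 6, 3 and 6). Another that matches 14 symbols, 1451769_s_at, averaged 711 ± 70.2 in EGF samples, 999 ± 140 with NT-3 and 1151 ± 289 in PDGF samples, and the highest EGF sample (763) lay below the lowest PDGF sample (884). The third that matches 14 symbols, 1424341_s_at, averaged 572 ± 93.8 in EGF samples, 304 ± 138 with NT-3 and 653 ± 112 in PDGF samples, and its EGF samples (448 to 687) overlapped the PDGF samples (545 to 850).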
